A study of Mus musculus with 4 samples.

Results

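The mRNA levels of 9 drug transporters of the hepatocyte were examined in the liver of mice fed a steatohepatitis-inducing diet with or without 7-ketocholesterol (7KC), an oxidized derivative of cholesterol. The genes are identified by symbol, as a set proposed with earlier results of these data known, and all 9 were found among 24346 listed symbols. Of these, 5 encode carriers that bring compounds into the hepatocyte (Slco1a1, Slco1a4, Slco1b2, Slco2b1 and Slc22a7), and 4 encode pumps that export them (Abcc2, Abcc3, Abcc4 and Abcb1a). The mice were young adult wild type C57BL/6 males. All of them received a high-fat, high-cholesterol, high-sucrose diet with bile salt (NASH diet) for 3 weeks, so cholesterol, cholate and sucrose were shared by both groups. The diet of the 7KC group (n = 2) also contained 7KC, and that of the control group (n = 2) did not. No mouse on a standard diet was among the samples.

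The hepatocyte takes up drugs, hormones, bile acids and other organic anions from blood through carriers in its sinusoidal membrane, which faces the blood. Many of these belong to the organic anion transporting polypeptides (Slco genes) and to the organic anion and cation carriers (Slc22 genes). After conjugation, ATP-driven pumps of the Abcb and Abcc families send the products across the canalicular membrane into bile or back across the basolateral membrane into blood. In cholestasis and in inflamed liver, uptake carriers are known to be lowered and basolateral pumps raised, and the nuclear receptors CAR, PXR and FXR and the antioxidant regulator Nrf2 are known to control several of these genes.

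Expression was given as FPKM, which scales the fragments mapped to a gene by the length of its exons and by all mapped fragments of the library, so levels can be compared between genes. The estimated depth was 13600000 to 17000000 mapped reads per library. Of 12299 genes tested with limma, 59 had a higher and 3 a lower level with 7KC at a Benjamini-Hochberg adjusted p under 0.05. These calls were not stable: limma with a replicate block gave 0 and 0 (1269 and 582 at an unadjusted p under 0.05), limma without the filter on low values gave 0 and 1 (1792 and 842), and leaving out a library gave 2 to 404 higher and 1 to 54 lower. Leaving out control replicate 1 gave 404 higher calls, whereas leaving out 7KC replicate 1 gave 4 and 7KC replicate 2 gave 2. Liver tissue was sequenced whole, so fewer hepatocytes and less transporter mRNA per hepatocyte cannot be told apart. The hepatocyte markers of the samples were abundant, with Alb (albumin) at 18988 FPKM or more in every library.

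Of the 9 transporters, all passed the filter on low values and 0 passed the threshold over all genes with limma, where 0.504% of all tested genes passed. At an unadjusted p under 0.05 there were 2, Slco1a4 and Slco2b1, against 17.8% of all tested genes. All 5 uptake carriers had a lower mean log2 level in the 7KC group, and 3 of the 4 efflux carriers had a higher one. Both 7KC libraries lay below both control libraries in 4 of the 9 (Slco1a4, Slco1b2, Slco2b1 and Abcc2), where 27.4% of all tested genes did so. Both lay above in 2 of the 9 (Abcc3 and Abcc4), where 25.1% of all tested genes did so. These are shares of 44.4% and 22.2% of 9 genes and are given as a description only.

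**Figure D1:**
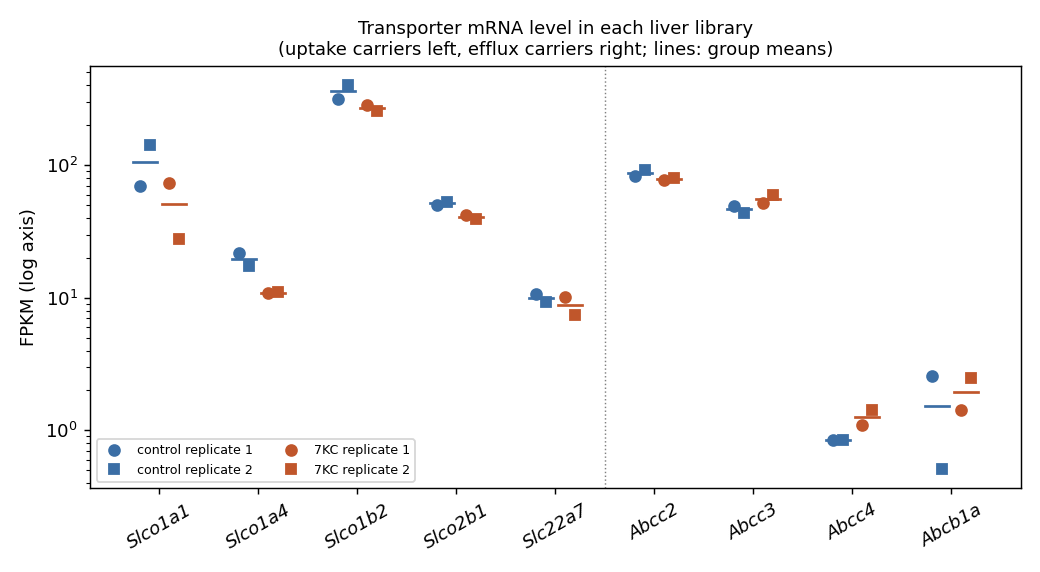
FPKM of the 9 transporter genes on a log axis in the control libraries (blue) and the 7KC libraries (orange), with a point per library and a line at each group mean. Slco1b2 is the most abundant, between 254 and 403 FPKM, and Abcc4 and Abcb1a lie at or below 2.58 FPKM in all libraries.

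Promoter sequences, from 250 bases before to 50 bases after an annotated start, were matched for 7 of the 9 genes in RefSeq (GRCm38.p6). Abcc3 and Slc22a7 were not matched. Each was searched on both strands for 3 motifs: TGACNNNGC, the core of the antioxidant response element bound by Nrf2, AGGTCA, the core recognized by many nuclear receptors, and GTTAAT, a core bound by HNF1 factors. Of 32851 promoters of the same length, 12.4%, 16.3% and 7.10% held them. The 3 matched efflux genes each held TGACNNNGC, in both listed promoters of Abcc4 and in 1 each of Abcc2 and Abcb1a, and none of the promoters of the 4 matched uptake genes did. They are shown because they differ in this between efflux and uptake carriers, with matches to the 3 motifs in capitals and the match of TGACNNNGC starting 98 bases before the start in Abcc2, 25 bases before it in Abcc4 and 26 bases after the start base in Abcb1a. In the Abcc4 and Abcb1a promoters shown, the match is on the opposite strand, so the capitals give its reverse complement. The Abcb1a promoter shown ends at base 8567140 of chromosome 5, far upstream of the annotated gene span given with its values, which begins at 8660077. Whether this start gives rise to the measured Abcb1a mRNA was not tested. A match is a description of the letters, not a bound site.

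Abcc2 promoter, chr19:43782058-43782357, plus strand: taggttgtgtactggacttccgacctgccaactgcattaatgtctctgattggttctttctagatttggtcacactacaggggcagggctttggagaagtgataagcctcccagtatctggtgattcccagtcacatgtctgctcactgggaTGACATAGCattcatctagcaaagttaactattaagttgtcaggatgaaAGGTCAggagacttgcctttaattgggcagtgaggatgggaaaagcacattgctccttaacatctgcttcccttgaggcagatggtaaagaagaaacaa
Abcc4 promoter, chr14:118706170-118706469, minus strand: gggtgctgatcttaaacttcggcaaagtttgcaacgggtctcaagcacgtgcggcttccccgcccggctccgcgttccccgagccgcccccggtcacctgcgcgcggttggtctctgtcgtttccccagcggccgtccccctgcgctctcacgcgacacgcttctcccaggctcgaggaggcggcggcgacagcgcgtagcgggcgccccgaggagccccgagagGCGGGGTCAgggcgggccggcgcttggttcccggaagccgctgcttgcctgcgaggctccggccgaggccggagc
Abcb1a promoter, chr5:8566841-8567140, plus strand: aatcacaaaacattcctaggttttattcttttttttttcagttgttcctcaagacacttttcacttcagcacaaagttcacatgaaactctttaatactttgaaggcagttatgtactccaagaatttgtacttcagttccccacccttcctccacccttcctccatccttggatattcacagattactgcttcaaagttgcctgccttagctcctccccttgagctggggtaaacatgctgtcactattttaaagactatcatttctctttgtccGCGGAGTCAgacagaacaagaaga

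Of the uptake genes, Slco1b2 and Slco1a1 held the other motifs, and Slco1a4 and the 3 listed promoters of Slco2b1 held none of the 3. The promoter of Slco1b2 held GTTAAT 66 bases before the start and AGGTCA 81 bases before it, on the opposite strand. That of Slco1a1 held AGGTCA at 134 bases before the start, on the opposite strand, and at 24 bases before it. These are shown because they belong to the most abundant and the most variable of the uptake carriers.

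Slco1b2 promoter, chr6:141629268-141629567, plus strand: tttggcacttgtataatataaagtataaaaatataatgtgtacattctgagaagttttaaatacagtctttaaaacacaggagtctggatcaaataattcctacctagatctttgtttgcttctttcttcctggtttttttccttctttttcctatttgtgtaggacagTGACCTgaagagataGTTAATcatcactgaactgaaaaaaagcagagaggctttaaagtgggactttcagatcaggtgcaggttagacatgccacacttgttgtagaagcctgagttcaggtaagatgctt
Slco1a1 promoter, chr6:141946913-141947212, minus strand: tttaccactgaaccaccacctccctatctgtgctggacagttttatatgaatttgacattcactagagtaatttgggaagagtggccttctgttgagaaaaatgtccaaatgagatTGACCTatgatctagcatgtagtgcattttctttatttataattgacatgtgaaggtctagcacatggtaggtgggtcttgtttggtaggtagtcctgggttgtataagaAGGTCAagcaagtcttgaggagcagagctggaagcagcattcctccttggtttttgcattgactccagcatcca

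Slco1b2 was the most abundant transporter of the set in every library and accounted for 64.4% to 74.8% of the summed FPKM of the 5 uptake carriers. It encodes the liver-specific carrier Oatp1b2, the mouse counterpart of human OATP1B1 and OATP1B3, and lies on chromosome 6 (mm10, 141629518 to 141686646, plus strand, 16 exons). Its level was 318 and 403 FPKM on the control diet and 284 and 254 FPKM on the 7KC diet. The groups did not overlap, but 7KC replicate 1 lay closer to control replicate 1 than the control libraries lay to each other. The mean was 361 ± 60.4 FPKM (SD, n = 2) in the control group and 269 ± 21.5 FPKM (SD, n = 2) in the 7KC group, a ratio of 0.746. The log2 change was -0.41 (95% interval -0.84 to 0.01, limma adjusted p 0.287), and it turned to 0.03 when libraries were scaled to hepatocyte markers. It was -0.21 when libraries were brought to the same sum, -0.59 without control replicate 1 and -0.24 without control replicate 2.

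Slco1a1 had the widest spread among the uptake carriers. It encodes Oatp1a1, a carrier of organic anions and steroid conjugates that is higher in male than in female mouse liver, and lies on chromosome 6 (141907282 to 141946962, minus strand, 15 exons). Its level was 69.2 and 143 FPKM on the control diet and 73.6 and 27.8 FPKM on the 7KC diet. The groups overlapped, since 7KC replicate 1 lay above control replicate 1. Within the control group the libraries differed 2.07-fold, and within the 7KC group 2.65-fold. The ratio of the group means was 0.478, the lowest of the 9 genes, but the log2 change of -1.13 had an interval of -2.51 to 0.25 (limma adjusted p 0.352). It was -0.43 without 7KC replicate 2 and -1.82 without 7KC replicate 1.

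Slco1a4 gave the smallest p of the set. It encodes Oatp1a4, a carrier of organic anions and cardiac glycosides, and lies near Slco1a1 on chromosome 6 (141805440 to 141856199, minus strand, 17 exons). Its level was 21.6 and 17.4 FPKM on the control diet and 10.8 and 11.1 FPKM on the 7KC diet. The 7KC libraries were nearly equal and well below both control libraries. The group means were 19.5 ± 2.93 and 10.9 ± 0.185 FPKM (SD, n = 2 each), a ratio of 0.561. The log2 change was -0.80 (SE 0.14, 95% interval -1.15 to -0.45, unadjusted p 0.00189), and after adjustment over all genes limma gave 0.0742, with 0.0727 to 0.374 over the alternative settings. Slco1a1 and Slco1a4 share sequence: 1.51% of the 75-base windows of the longest Slco1a1 transcript and 1.76% of those of Slco1a4 also occurred in transcripts of another gene, mainly each other and Slco1a5. Slco1a5 and Slco1a6 were listed at 0 FPKM in all 4 libraries.

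Slco2b1 and Slc22a7 were the other uptake carriers. Slco2b1 (chromosome 7, 99657804 to 99711340, minus strand) encodes Oatp2b1, a carrier of steroid sulfates found in several tissues besides liver. It was at 49.8 and 53.2 FPKM on the control diet and at 42.2 and 39.3 FPKM on the 7KC diet. The libraries of each group lay close together and the groups did not overlap, with a ratio of means of 0.791 and a log2 change of -0.34 (95% interval -0.62 to -0.05, limma unadjusted p 0.0273, adjusted p 0.222). Slc22a7 (chromosome 17, 46432183 to 46438457, minus strand) encodes the organic anion transporter Oat2. It was at 10.6 and 9.29 FPKM on the control diet and at 10.1 and 7.46 FPKM on the 7KC diet. Here the groups overlapped, and the log2 change of -0.18 (95% interval -0.63 to 0.27, limma adjusted p 0.629) turned to 0.03 without 7KC replicate 2.

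Among the efflux carriers, Abcc2 and Abcc3 made up nearly all of the summed level. Abcc2 (chromosome 19, 43782192 to 43840740, plus strand, 32 exons) encodes Mrp2, the canalicular pump for bilirubin glucuronides and other conjugates. It was at 82.8 and 91.2 FPKM on the control diet and at 77.0 and 79.5 FPKM on the 7KC diet. The groups did not overlap, but the ratio of means was only 0.900 and the log2 change was -0.15 (95% interval -0.44 to 0.14, limma adjusted p 0.532). Abcc3 (chromosome 11, 94343295 to 94392997, minus strand, 31 exons) encodes Mrp3, a basolateral pump that returns conjugates and bile acids to blood. It was at 49.2 and 43.7 FPKM on the control diet and at 52.0 and 59.8 FPKM on the 7KC diet. The 7KC libraries lay above the controls, with a ratio of 1.20 and a log2 change of 0.26 (95% interval -0.07 to 0.59, limma adjusted p 0.360). However, 7KC replicate 1 lay closer to control replicate 1 than the control libraries lay to each other. Within each library, the level of Abcc3 relative to Abcc2 was 0.595 and 0.479 in the control group and 0.675 and 0.752 in the 7KC group.

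Abcc4 and Abcb1a were low. Abcc4 (chromosome 14, 118482692 to 118706219, minus strand, 31 exons) encodes Mrp4, a basolateral pump for bile acids, cyclic nucleotides and sulfated steroids. It was at 0.843 and 0.842 FPKM on the control diet and at 1.09 and 1.43 FPKM on the 7KC diet. Both 7KC values were above the control values, which were almost identical, with a ratio of 1.5 and a log2 change of 0.39 (95% interval -0.09 to 0.86, limma adjusted p 0.356). Its FPKM stood for about 64 to 109 reads, for which the coefficient of variation from counting reaches 12.5%. Abcb1a (chromosome 5, 8660077 to 8748575, plus strand, 28 exons) encodes P-glycoprotein, a pump for hydrophobic drugs in the canalicular membrane that is also abundant in capillary endothelium. It was at 2.58 and 0.513 FPKM on the control diet and at 1.43 and 2.48 FPKM on the 7KC diet. Both 7KC values fell between the control values, which differed 5.03-fold.

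The log2 change of Abcb1a was 0.44 (95% interval -0.95 to 1.84, limma adjusted p 0.711), and leaving out control replicate 1 or 2 gave 1.24 or -0.36. Of the 75-base windows of its longest transcript, 11.4% were shared with other genes, mainly with its near neighbour Abcb1b, so reads of this pair can be exchanged. Abcb1b was at 0.477 and 0.730 FPKM on the control diet and at 0.508 and 0.853 FPKM on the 7KC diet. The other 6 members besides Slco1a1, Slco1a4 and Abcb1a had no such window in common with another annotated transcript.

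**Figure D2:**
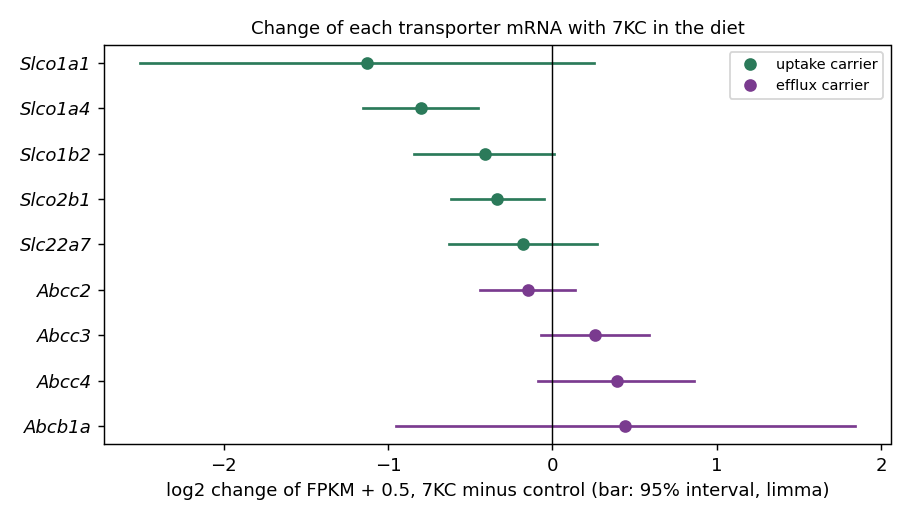
Log2 change of FPKM + 0.5 between the 7KC and control groups for each transporter, with the 95% interval from limma (n = 2 per group, not adjusted for the number of genes). The points of the uptake carriers run from -1.13 to -0.18 and those of the efflux carriers from -0.15 to 0.44, and only the intervals of Slco1a4 and Slco2b1 lie wholly below 0.

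Because FPKM is relative to all mapped fragments, uptake and efflux carriers were also compared as ratios within a library. Ratios of plain FPKM, as used for the geometric means, do not depend on how libraries are scaled to each other. The log2 ratios of pairs were taken from FPKM + 0.5, so they depend on it in part, most for the low genes Abcc4 and Abcb1a. The calls of pairs under other scalings were not tested. The ratio of the geometric means of the 5 uptake and the 4 efflux carriers was 4.93 and 8.52 on the control diet and 4.44 and 2.60 on the 7KC diet. A geometric mean weighs each gene alike, so the low Abcb1a, at 2.58 and 0.513 FPKM on the control diet, weighs as much as Abcc2. The ratio of summed FPKM, in which the abundant genes weigh most, was 3.46 and 4.60 on the control diet and 3.20 and 2.37 on the 7KC diet. Control replicate 1 and 7KC replicate 1 lay close together, and 7KC replicate 2 was the lowest. Of the 20 pairs of an uptake and an efflux carrier, 13 had a lower log2 ratio in both 7KC libraries than in both control libraries, 0 had a higher ratio and 7 overlapped. Over all ordered pairs of tested genes, 26.4% were lower in this way. The 20 pairs share their genes and are not independent. All 5 ratios over Abcc4 and 4 of 5 over Abcc3 were lower, against 3 of 5 over Abcc2 and 1 of 5 over Abcb1a.

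Single ratios differed in how far apart the groups lay. The level of Slco1a4 relative to Abcc3 was 0.438 and 0.399 on the control diet and 0.208 and 0.185 on the 7KC diet. Of the 20 pairs, this one had the widest gap between groups relative to the spread within them. The level of Slco1b2 relative to Abcc3 was 6.46 and 9.23 on the control diet and 5.47 and 4.25 on the 7KC diet. The level of Slco1b2 relative to Abcc2 was 3.84 and 4.42 against 3.69 and 3.20. On the log2 scale this was a difference of -0.26, with control libraries at 1.94 and 2.14 and 7KC libraries at 1.88 and 1.67. Slc22a7 relative to Abcc2 overlapped between groups, with a mean log2 difference of -0.03.

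**Figure D3:**
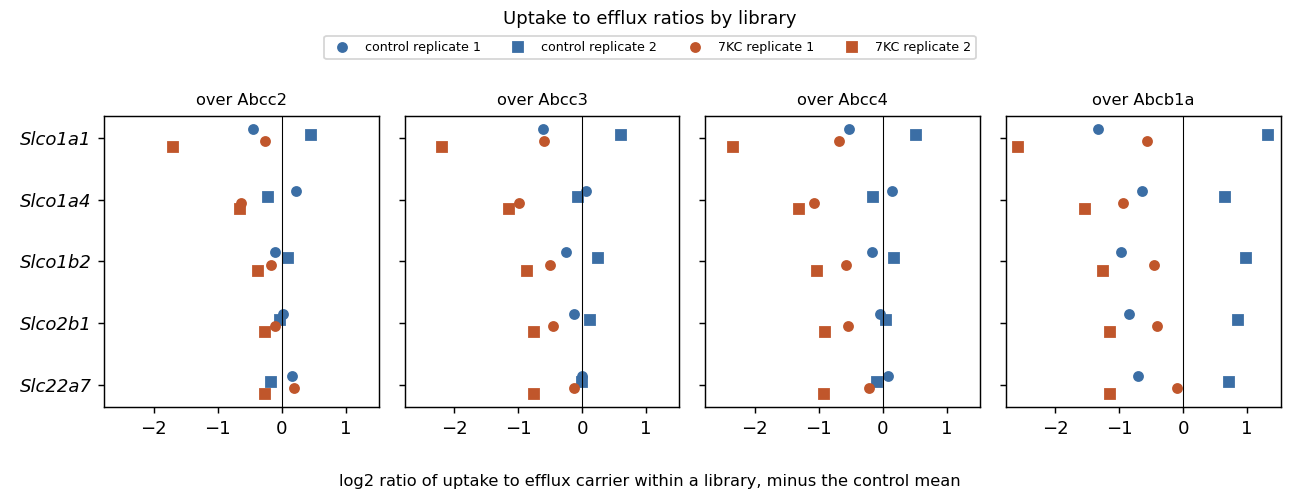
Log2 ratio of each uptake carrier to each efflux carrier within a library, after subtraction of the control mean, with a panel per efflux carrier and a point per library (control blue, 7KC orange). The 7KC points lie left of both control points for all 5 carriers over Abcc4 and for 4 of 5 over Abcc3, whereas over Abcb1a the control points lie far apart.

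The median log2 change was -0.41 over the 5 uptake carriers and 0.32 over the 4 efflux carriers, and that of all tested genes was -0.03. These medians depended on single libraries: the efflux median was 0.05 without control replicate 2, and the uptake median ranged from -0.59 to -0.29 when each library was left out in turn. They also depended on the scaling. When libraries were brought to the same sum, the median of all genes moved to 0.17, and Slc22a7 and Abcc2 turned from negative to 0.02 and 0.06. When libraries were scaled to their hepatocyte markers, a setting chosen after seeing the data, the median of all genes moved to 0.38. The changes of Slco1b2, Slco2b1, Slc22a7 and Abcc2 were then 0.03, 0.11, 0.25 and 0.30, Slco1a1 and Slco1a4 stayed negative at -0.68 and -0.36, and Abcc3 passed the threshold at 0.71 (limma adjusted p 0.0144), as did 16.1% of all genes tested under that scaling. Under the same scaling the negative changes of Abcc6, Abcb11, Nr1i2, Nr5a2, Rdx and Gclm, described with their lists, also turned positive, that of Gclm under same sum scaling too. The medians of the other uptake carriers, other efflux carriers, regulators and scaffold proteins turned positive under both scalings, and that of the CAR and PXR targets under hepatocyte marker scaling. Relative to the median of all genes under hepatocyte marker scaling, the uptake median was -0.34 and the efflux median 0.32. That of the hepatocyte markers themselves was -0.44. Without this scaling the same values were -0.39, 0.35 and -0.49. The scaling multiplies each library by 1 factor, so values relative to the median of all genes change little by construction.

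Cell markers moved in the same libraries. The summed level of 7 hepatocyte markers was 64996 and 52787 FPKM on the control diet and 46222 and 34036 FPKM on the 7KC diet, with 7 of 7 negative and a median log2 change of -0.52. That of 6 monocyte and recruited macrophage markers was 595 and 357 FPKM against 1113 and 1749 FPKM (6 of 6 positive, median 1.61), and that of 6 T and NK cell markers was 16.3 and 11.1 FPKM against 38.9 and 34.2 FPKM (6 of 6 positive, median 1.29). None of these 19 genes passed the threshold over all genes with limma, and none was at 0 in any group. Alb was the largest part of the hepatocyte sum and overlapped between groups, at 41547 and 25202 against 26969 and 18988 FPKM. Lyz2 was most of the monocyte and macrophage sum, at 538 and 321 against 995 and 1583 FPKM. The endothelial markers, cells in which Abcb1a is known, were at 108 and 132 FPKM against 98.4 and 142 FPKM (3 of 7 positive, median -0.05). Resident Kupffer cell markers were at 297 and 303 FPKM against 349 and 533 FPKM (4 of 6 positive, median 0.69), stellate cell markers at 158 and 162 against 115 and 141 FPKM (2 of 5 positive, median -0.14), and cholangiocyte markers at 89.4 and 57.7 against 168 and 368 FPKM, nearly all of it Spp1 (3 of 4 tested positive, median 0.19). Among the cholangiocyte markers, Spp1 had a log2 change of 1.84, and the others did not move together. Krt19 was lower without overlap (-0.22), Epcam overlapped (0.04), Sox9 was higher without overlap (0.33) and Krt7 was not tested. The part of these cell types in the transporter values was not tested.

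The other carriers of hepatocyte drug and bile transport showed how the set stood in its families. Of 23 other uptake carriers of the Slco, Slc22 and Slc10 families, 13 were tested and 0 passed in either direction, with 4 positive, 9 negative and a median log2 change of -0.09. Both 7KC libraries lay below both control libraries in 5 and above in 3 of these 13, where 27.4% and 25.1% of all tested genes did so. With 13 genes, these counts are a description only. Slc10a1, which encodes the bile acid carrier Ntcp, was at 231 and 311 FPKM on the control diet and at 190 and 130 FPKM on the 7KC diet (log2 change -0.77, limma adjusted p 0.207). Slc22a30, an Slc22 family member, was at 20.9 and 28.6 against 19.0 and 14.7 FPKM (-0.54, adjusted p 0.269). Slco3a1, a widely expressed anion carrier, was at 2.71 and 2.27 against 4.66 and 3.74 FPKM (0.65, adjusted p 0.145). Slco2a1, the prostaglandin transporter, was at 11.0 and 8.16 against 11.9 and 14.0 FPKM (0.43, adjusted p 0.297). Thus the abundant carriers Slco1b2 and Slc10a1 were lower in both 7KC libraries, while Slco2a1 and Slco3a1, Slco genes like Slco1b2, were higher in both.

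Of 16 other genes listed as efflux carriers, 13 were tested and 0 passed in either direction, with 6 positive, 7 negative and a median of -0.04. The list also holds genes that export no drug, such as Abcc9, so its counts and median are not those of drug pumps alone. Abcc5, a pump for cyclic nucleotides, was at 2.49 and 1.76 FPKM on the control diet and at 4.42 and 5.29 FPKM on the 7KC diet, the highest log2 change among them (log2 change 1.04, limma adjusted p 0.0833). Abcc1, which encodes the broadly expressed pump Mrp1, was at 1.17 and 0.665 against 1.48 and 2.56 FPKM (0.82, adjusted p 0.251). Abcc6, a hepatic member of the family linked to soft-tissue calcification, was at 40.3 and 45.6 against 36.1 and 29.5 FPKM (-0.39, adjusted p 0.260). Abcc9, a subunit of ATP-sensitive potassium channels and no drug pump, was at 4.59 and 5.42 against 2.93 and 3.68 FPKM (-0.54, adjusted p 0.196). The canalicular pumps for bile acids and phospholipids, Abcb11 and Abcb4, were chosen here after their values were seen. Abcb11 had a log2 change of -0.29 with overlapping libraries, and Abcb4 one of 0.05 without overlap (limma adjusted p 0.486 and 0.818).

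**Figure D4:**
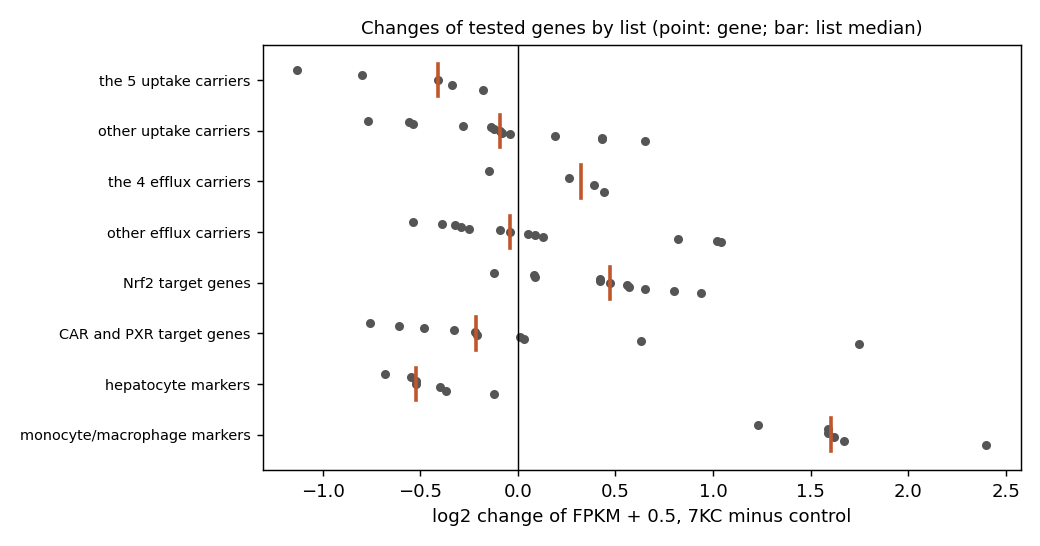
Log2 change of FPKM + 0.5 between the 7KC and control groups for each tested gene of 8 lists, with a point per gene and a bar at the list median. The 5 uptake carriers lie at or below -0.18 and 3 of the 4 efflux carriers at 0.26 or higher, the hepatocyte markers are all negative, and the monocyte and macrophage markers are all at 1.23 or higher.

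Scaffold proteins that anchor these carriers in the membrane were divided, and 0 of 6 passed. Pdzk1, which holds Oatp1a1 at the sinusoidal membrane, was at 20.4 and 24.6 FPKM on the control diet and at 16.9 and 15.2 FPKM on the 7KC diet (log2 change -0.47, limma adjusted p 0.189). Rdx encodes radixin, which holds Mrp2 at the canaliculus, and was at 49.4 and 58.0 against 43.4 and 38.2 FPKM (-0.39, adjusted p 0.240). The relatives of radixin, ezrin and moesin, which are abundant in leukocytes and epithelia, stood on the other side. Msn (moesin) was at 20.7 and 18.2 against 34.5 and 40.9 FPKM (0.93, adjusted p 0.0599), and Ezr (ezrin) at 4.10 and 3.02 against 5.60 and 7.45 FPKM (0.79, adjusted p 0.146).

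Of 17 regulators of transporter genes, 0 passed, 5 were positive and 12 negative, with a median of -0.19. Without overlap, 8 of them were lower and 2 higher with 7KC, where 27.4% and 25.1% of all tested genes were. Nfe2l2, which encodes Nrf2, was at 31.3 and 30.1 FPKM on the control diet and at 39.5 and 39.9 FPKM on the 7KC diet (log2 change 0.37, limma adjusted p 0.174), with little spread in either group. Arnt, the partner of the aryl hydrocarbon receptor, was at 9.32 and 9.64 against 11.8 and 11.0 FPKM (0.25, adjusted p 0.319). The hepatocyte factors Cebpa and Nr5a2 were lower in both 7KC libraries, at 183 and 244 against 179 and 130 FPKM for Cebpa (-0.47, adjusted p 0.342) and at 17.1 and 17.6 against 13.7 and 12.6 FPKM for Nr5a2 (-0.39, adjusted p 0.173). The genes of CAR (Nr1i3) and PXR (Nr1i2), named for their role and after their values were seen, were at log2 changes of 0.09 and -0.30 (adjusted p 0.866 and 0.291 with limma). That of Nr1i3, whose 7KC libraries were at 35.1 and 55.4 FPKM, turned negative without 7KC replicate 2.

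Target genes of these regulators were then counted. Of 12 Nrf2 target genes, 11 were tested and 0 passed, with 10 positive and a median log2 change of 0.47. In 8 of 11 the lowest 7KC value exceeded the highest control value, where 25.1% of all tested genes did so. In 1 of 11 both 7KC libraries lay below both control libraries, where 27.4% of all tested genes did so. G6pdx, the first enzyme of the pentose phosphate pathway, was at 5.18 and 3.98 FPKM on the control diet and at 8.05 and 10.4 FPKM on the 7KC diet (log2 change 0.94, limma adjusted p 0.0966). The glutathione transferase gene Gstm3 was at 200.1 and 106 against 217 and 298 FPKM (0.80, adjusted p 0.297). Gclm, a subunit of the enzyme that starts glutathione synthesis, was the only negative one, at 75.4 and 70.6 against 67.7 and 66.6 FPKM (-0.12, adjusted p 0.601).

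Of 10 CAR and PXR target genes, 0 passed, 4 were positive and 6 negative, with a median of -0.22. Without overlap, 6 of them were lower and 2 higher with 7KC, where 27.4% and 25.1% of all tested genes were. Cyp2c29, a cytochrome P450, was at 800.2 and 1136 FPKM on the control diet and at 626 and 504 FPKM on the 7KC diet (log2 change -0.76, limma adjusted p 0.192). The sulfotransferase gene Sult1d1 was at 144 and 205 against 132 and 96.0 FPKM (-0.61, adjusted p 0.273). On the other side were glutathione transferase genes, which Nrf2 is also known to control: Gsta1 was at 2.96 and 1.33 against 8.18 and 7.78 FPKM (1.75, adjusted p 0.0742), and Gstm1 was at 2161 and 1510.1 against 2704 and 2890.3 FPKM (0.63, adjusted p 0.260). Glutathione transferases have close relatives and can have exchanged reads.

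The spread of Slco1a1 within each group was set beside other genes that are known to be higher in male liver. Of 10 such genes, 0 passed with limma (2 positive, 8 negative, median -0.48), and 7 were highest in control replicate 2, where 28.4% of all tested genes were highest. As with Slco1a1, 5 of the 10 (Hsd3b5, Elovl3, Cyp2d9, C6 and Serpina1e) were highest in control replicate 2 and lowest in 7KC replicate 2, an order found in 15.1% of all tested genes. Hsd3b5, a steroid dehydrogenase named after its values were seen, was at 39.8 and 104 FPKM on the control diet and at 51.7 and 20.0 FPKM on the 7KC diet, the same order of the 4 libraries as Slco1a1. Among the named genes, Elovl3, a fatty acid elongase, was at 29.7 and 76.9 against 22.7 and 17.3 FPKM (log2 change -1.25, adjusted p 0.244), and Cyp4a12a, a fatty acid hydroxylase, at 45.6 and 38.7 against 22.2 and 29.0 FPKM (-0.72, adjusted p 0.128). Ugt2b38, a glucuronosyltransferase, was at 0.862 and 0.214 against 3.49 and 1.24 FPKM (1.42, adjusted p 0.240). Of 10 genes known to be higher in female liver, 4 were tested, 0 passed and 3 were listed at 0 in all libraries. Cyp17a1, a steroid hydroxylase, was at 4.56 and 3.09 against 2.18 and 2.30 FPKM (-0.64, adjusted p 0.205).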

How the data were processed

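Per the labels and the study's methods, liver RNA was made into stranded mRNA libraries and sequenced as 75-base single-end reads. The authors mapped them to mm10 with TopHat and Bowtie2 and deposited 1 FPKM value per gene symbol and library, calculated with Cufflinks. The submitters' notes name TopHat2 2.1.1, Bowtie2 2.2.8 and Cuffdiff 2.2.1. The annotation and the treatment of multi-mapped reads were not given in the sources used here. FPKM values are not counts, so no count model was used.

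Depth was estimated from low values: with GENCODE M21 lengths less 200 bases, 68.9% to 71.0% of values up to 10 reads of single-transcript genes were within 0.1 of a whole number of reads, where chance gives 20%. Reads per gene were derived from this for the longest coding transcript and describe counting error only.

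The 12299 genes whose mean reached 0.5 FPKM were tested as log2(FPKM + 0.5) with limma 3.58.1 in R 4.3.3 (eBayes with a trended prior variance, 2 residual and 3.27 prior degrees of freedom, group as the only term), Benjamini-Hochberg adjusted over all of them, and the script was tested on simulated data. This scale understates the change of low genes. An exact permutation test of 2 against 2 libraries cannot go below 0.333. The labels do not say whether libraries came from separate animals, so p-values measure only the spread between these samples. The pseudocount, the filter, the scaling, the prior, each library and a replicate block were varied. Libraries with the same number did not deviate together (correlation -0.141 across genes).

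The members, lists and tests were chosen with earlier results of these data known. Named from each list were genes past the threshold and, among those whose libraries did not overlap between groups, the 2 largest rises and the 2 largest falls. The marker symbol Tf was not matched.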

Additional observations from a re-analysis of the deposited data

How the results depend on the processing

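The 9 transporter changes were recomputed under 14 settings each. Of these 126 values, 117 kept their direction and side of the threshold, 8 reversed and 1 newly passed. Slco1a1, Slco1a4, Abcc3 and Abcc4 kept their direction in all 14. Under same sum scaling Slc22a7 was at 0.02 and Abcc2 at 0.06; under hepatocyte marker scaling, chosen after seeing the data, Slco1b2 was at 0.03, Slco2b1 at 0.11, Slc22a7 at 0.25, Abcc2 at 0.30 and Abcc3, which passed, at 0.71. Leaving out a library, Slc22a7 ranged from -0.39 to 0.03 (without 7KC replicate 2) and Abcb1a from -0.36 (without control replicate 2) to 1.24 (without control replicate 1). The uptake median was -0.21, -0.30 and 0.03 under same sum, quantile and hepatocyte marker scaling and -0.59 to -0.29 leaving out a library; the efflux median was 0.53 and 0.70 under same sum and hepatocyte marker scaling and 0.05 to 0.44 leaving out a library. Same sum and hepatocyte marker scaling multiply each library by 1 factor. The cause of the differences was not tested.

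Over all genes, 59 higher and 3 lower became 111 higher with a pseudocount of 1, 0 higher and 1 lower without a filter, 112 higher with median ratio scaling, 359 and 6 with same sum scaling, 39 and 1 without a trended prior, 1972 and 20 with hepatocyte marker scaling, and 2 to 404 higher and 1 to 54 lower leaving out a library. With the replicate block, limma gave 0 higher and 0 lower (1269 and 582 at an unadjusted p under 0.05), and no transporter changed its side of the threshold. With crossed numbers, added after seeing the data, the block gave 551 higher and 37 lower. Of the 20 pairs, 13 to 20 were lower and 0 to 1 higher leaving out a library, where a lone library avoids overlap more easily.

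The list medians moved beyond the spread between libraries as follows. Under same sum scaling they were 0.06 for other uptake carriers, 0.16 for other efflux carriers, 0.02 for regulators, 0.15 for scaffold proteins, -0.02 for CAR and PXR targets, 0.72 for Nrf2 targets, -0.31 for hepatocytes and 0.04 for stellate cells. Under hepatocyte marker scaling they were 0.24, 0.35, 0.25, 0.39, 0.20, 0.94, -0.07 and 0.24 in the same order, and -0.03 for male-biased genes, 1.13 for Kupffer cells, 0.37 for endothelium and 1.70 for T and NK cells. Under quantile normalization they were -0.13 for other uptake carriers, -0.11 for regulators, 0.01 for scaffold proteins, -0.13 for CAR and PXR targets and -0.10 for hepatocytes. Other uptake carriers were also at -0.08 and -0.13 with a pseudocount of 1 and 0.1, -0.11 with a mean of at least 1 FPKM and -0.07 with median ratio scaling. Leaving out a library gave -0.10 to -0.07 for other uptake carriers, -0.10 to 0 for scaffold proteins, -0.33 to -0.17 for CAR and PXR targets, 0.35 to 0.65 for Nrf2 targets, -0.99 to 0.78 for female-biased genes, -0.68 to -0.28 for hepatocytes, 0.23 to 1.07 for Kupffer cells, -0.43 to 0.26 for endothelium, -0.09 to 0.36 for cholangiocytes, -0.31 to -0.05 for stellate cells and 1.03 to 1.40 for T and NK cells.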
